A study of Mus musculus with 14 samples.

Results

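The 37 cell cycle genes described here are named genes of DNA replication, mitosis and G1 control, measured in the mouse ventricle after pressure overload. They were taken by symbol from the table of gene values, and all 37 of the 24972 genes listed there were found and passed the filter on low values that left 13246 genes for testing. By role, 20 act mainly in mitosis or the entry into it, 10 in DNA replication and nucleotide supply, and 7 in the control of G1. Male C57BL/6N mice had sham surgery or transaortic constriction (TAC), a band around the aorta that loads the left ventricle, at an age of 9 to 10 weeks. At 2 weeks after surgery they received 1e12 viral genomes of the adeno-associated virus AAV2/9 by the tail vein, carrying either GFP as the control or JP2NT, and ventricles were taken 6 weeks after the virus, 8 weeks after surgery. JP2NT is the N-terminal fragment of junctophilin-2, a protein that tethers the sarcoplasmic reticulum to the T-tubules of heart muscle cells. No group was left without virus, and every group therefore carried the AAV2/9 vector. The records give 30 TAC mice selected, at an ejection fraction of 40% to 60%, and 10 sham mice selected. The groups were Sham+GFP (3 libraries), TAC+GFP (4), Sham+JP2NT (3) and TAC+JP2NT (4). The labels do not say which promoter drives GFP or JP2NT, nor that each library is a different mouse, and p-values here measure the spread between these libraries.

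Cells copy their DNA in S phase and divide it in mitosis. In the resting state the DREAM complex, which holds E2F and pocket proteins, keeps both sets of genes silent. Cyclin D with its kinases and cyclin E then release the E2F factors, which drive the replication genes first, while B-MYB and FOXM1 drive the mitotic genes later through a promoter element called the CHR (cell cycle genes homology region). CDK inhibitors such as p21, made by Cdkn1a, stop the advance. Cardiomyocytes of the adult mouse divide rarely, and can copy DNA without dividing, while fibroblasts, endothelial cells and immune cells of the loaded heart can divide. In these bulk libraries a gene can be lower because fewer cells of a type were present or because each cell held less of its RNA, and the libraries cannot tell these apart.

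The promoters of the members differed by role in the letters they hold. RefSeq promoter windows on GRCm38.p6, from 250 bases before to 50 bases after each start, were found for 28 of the 37 members. They were searched on both strands for E2F letters (TTCCCGC or TTGGCGC or TTCGCGC or TTGCCGC), CHR letters (TTTGAA or TTCGAA) and the CCAAT box (CCAAT). The E2F letters TTGGCGC can share bases with a CCAAT box that lies on the other strand. CHR letters were in 11 of 15 mitosis members with a window (73.3%) and 2 of 9 replication members (22.2%), against 21.7% of the 27025 genes with a window. E2F letters were in 3 of 15 mitosis members (20%) and 6 of 9 replication members (66.7%), against 10.9% of all genes. The CCAAT box was in 86.7% and 88.9% of these classes, against 41.1% of all genes. Other mitosis and replication genes from lists that hold no member showed like shares, with CHR letters in 36 of 48 mitosis genes (75%) and 5 of 27 replication genes (18.5%), and E2F letters in 12 (25%) and 17 (63.0%). In the bases before the start alone, CHR letters were in 7 of 15 mitosis members (46.7%) and in 19.6% of all genes, because in 4 members the only match lies after the start. Of the 4 G1 control members with a window, none held E2F or CHR letters and 1 held a CCAAT box. These are matches of letters, not measured binding sites.

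**Figure D1:**
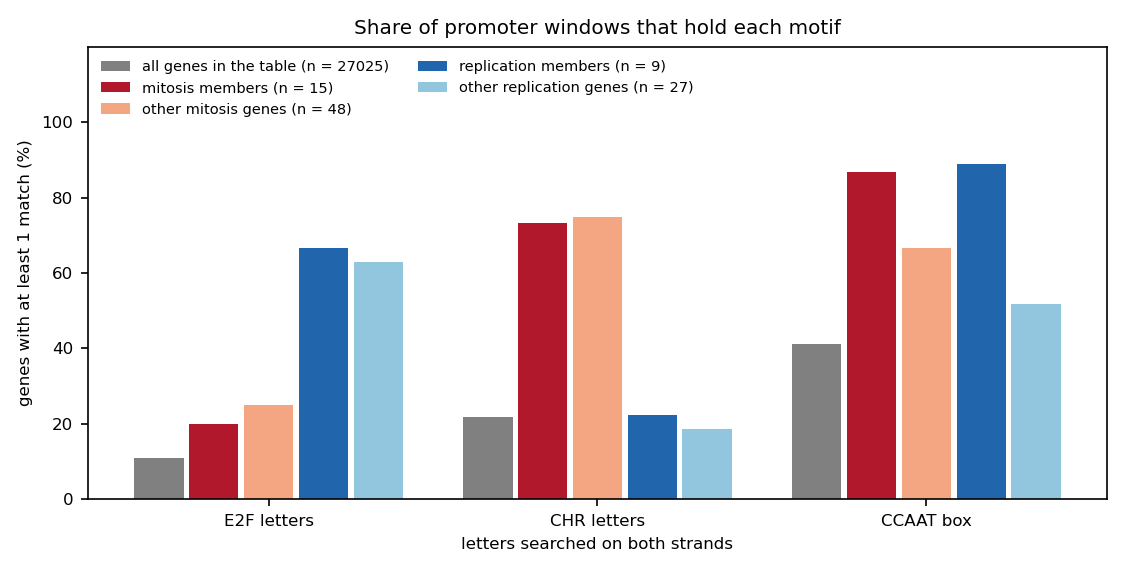
Share of genes, in percent on the y axis, whose promoter window holds at least 1 match to the E2F letters, the CHR letters or the CCAAT box, for all genes with a window, the mitosis and replication members, and the other mitosis and replication genes. CHR letters stand at 73.3% in mitosis members and 22.2% in replication members, while E2F letters stand at 20% and 66.7%.

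The sequences printed next show the 250 bases before the RefSeq start, written 5′ to 3′ on the gene's own strand, with all matches in capitals. Top2a, Mki67 and Kif11 are mitosis members that rose after TAC, and Cenpf is the mitosis member that fell. Mcm6 is a replication member that rose after TAC under both vectors, Mcm5 one that was called in neither comparison of TAC with sham, and Rrm1 one with differences close to 0. Their windows lie on GRCm38.p6 at chr11:99024190-99024439 (minus strand, Top2a), chr7:135716380-135716629 (minus, Mki67), chr19:37376132-37376381 (plus, Kif11), chr1:189688087-189688336 (minus, Cenpf), chr1:128359706-128359955 (minus, Mcm6), chr8:75109259-75109508 (plus, Mcm5) and chr7:102441445-102441694 (plus, Rrm1).
Top2a: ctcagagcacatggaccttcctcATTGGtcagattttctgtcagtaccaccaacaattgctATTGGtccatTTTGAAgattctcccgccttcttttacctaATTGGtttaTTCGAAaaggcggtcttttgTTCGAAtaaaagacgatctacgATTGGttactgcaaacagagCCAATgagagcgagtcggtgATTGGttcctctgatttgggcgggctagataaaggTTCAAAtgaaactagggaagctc
Mki67: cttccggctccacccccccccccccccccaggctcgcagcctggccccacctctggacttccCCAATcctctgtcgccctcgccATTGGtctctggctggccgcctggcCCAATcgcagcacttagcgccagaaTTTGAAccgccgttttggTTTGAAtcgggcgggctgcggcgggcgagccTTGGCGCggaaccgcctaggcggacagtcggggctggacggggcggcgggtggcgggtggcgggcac
Kif11: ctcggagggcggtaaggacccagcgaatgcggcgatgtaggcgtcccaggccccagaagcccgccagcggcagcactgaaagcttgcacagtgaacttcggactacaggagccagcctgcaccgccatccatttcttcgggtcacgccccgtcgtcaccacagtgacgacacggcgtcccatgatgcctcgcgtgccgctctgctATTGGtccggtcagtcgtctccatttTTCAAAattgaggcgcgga
Cenpf: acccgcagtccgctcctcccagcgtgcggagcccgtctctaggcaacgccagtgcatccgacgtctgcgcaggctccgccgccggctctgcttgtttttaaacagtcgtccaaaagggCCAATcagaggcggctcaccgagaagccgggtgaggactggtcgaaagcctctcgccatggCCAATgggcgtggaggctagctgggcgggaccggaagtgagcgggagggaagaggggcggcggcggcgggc
Mcm6: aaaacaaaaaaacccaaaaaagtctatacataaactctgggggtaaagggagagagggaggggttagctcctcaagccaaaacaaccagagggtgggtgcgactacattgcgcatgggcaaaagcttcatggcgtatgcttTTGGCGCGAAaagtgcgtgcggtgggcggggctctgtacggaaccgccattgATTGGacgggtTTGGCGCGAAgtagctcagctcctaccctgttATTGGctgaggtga
Mcm5: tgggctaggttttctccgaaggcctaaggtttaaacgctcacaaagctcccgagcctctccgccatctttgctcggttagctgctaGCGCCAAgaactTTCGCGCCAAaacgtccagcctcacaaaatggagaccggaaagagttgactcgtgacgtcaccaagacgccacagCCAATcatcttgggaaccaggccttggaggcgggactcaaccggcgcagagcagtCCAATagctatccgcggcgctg
Rrm1: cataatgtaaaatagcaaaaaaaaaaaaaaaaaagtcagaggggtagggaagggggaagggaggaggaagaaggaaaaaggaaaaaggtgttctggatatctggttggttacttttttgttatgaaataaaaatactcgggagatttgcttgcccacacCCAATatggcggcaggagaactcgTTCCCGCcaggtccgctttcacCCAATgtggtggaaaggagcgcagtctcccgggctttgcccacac
In these stretches Top2a holds 4 CHR matches and 6 CCAAT boxes with no E2F letters, and Mki67 holds 2 CHR matches, 3 CCAAT boxes and 1 E2F match. Kif11 holds 1 CHR match and 1 CCAAT box. Cenpf holds 2 CCAAT boxes and neither E2F nor CHR letters here, although its full window has a CHR match shortly after the start. Mcm6, Mcm5 and Rrm1 hold 4, 3 and 1 E2F matches, with 2 CCAAT boxes each and no CHR letters. Matches on opposite strands were counted separately, so each TTGGCGCGAA of Mcm6 and the TTCGCGCCAA of Mcm5 count as 2 overlapping E2F matches.

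Gene values are the authors' scaled gene counts after a joint rescaling of the 14 libraries, on a linear scale. A log2 difference is on log2(value + 1), with its standard error (SE) from limma, and a gene counts as called where its p, adjusted by Benjamini and Hochberg over all 13246 genes, is under 0.05. Libraries held an estimated 8650188 to 14460617 reads. Cardiomyocyte markers such as Myh6 and Tnnt2 were abundant in all 14 libraries. The mitosis members were scarce, at an estimated 0.984 to 367 reads per library, and in 16 of 20 the median sham library held under 20 reads. Replication members held 14.1 to 714 estimated reads and G1 control members 9.05 to 3848. Sham+JP2NT replicates 1 and 2 differed from each other much less than other pairs and were counted as 1 sample, so that 13 samples entered the fit. Both TAC libraries numbered 4 stood apart. TAC+JP2NT replicate 4 lay at -2.32 on the first principal component of all genes, against 23.4 to 27.5 in TAC+JP2NT replicates 1 to 3, 35.2 to 45.9 in TAC+GFP and -41.6 to -34.5 in sham. TAC+GFP replicate 4 lay among its group there, but held the most RNA of nearly every mitosis member. Results below are given with and without these libraries.

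Most mitotic genes rose after TAC, and most replication genes were not called. Under GFP, 17 of 20 mitosis members rose, 1 fell, and their median log2 difference was 1.68. All TAC+GFP libraries lay above all Sham+GFP libraries for 18 mitosis members and below them for 1, against 25.4% and 27.7% of all genes. Of the 10 replication members, 3 rose, 1 fell, and the median was 0.05. Of the 7 G1 control members, 3 rose and 1 fell, with a median of 0.44. Over all 37 members, 23 rose and 3 fell, while 48.0% of all genes tested were called, 23.3% higher and 24.7% lower, with a median of -0.0045. Under JP2NT, 13 mitosis members rose and 1 fell (median 1.30), with no overlap between the libraries in 10 that were above and 1 below (21.1% and 22.3% of all genes). In the same comparison 3 replication members rose and none fell (median 0.32), and 4 G1 control members rose and none fell (median 0.65). Over all members 20 rose and 1 fell, with 31.8% of all genes called, 16.0% higher and 15.8% lower. These JP2NT calls rest on few samples. Without Sham+JP2NT replicate 3, which leaves that group as 1 sample whose spread is taken from the other groups, 6 members rose, 5 of them mitosis members, against 7.16% of all genes, and the mitosis median was 1.30. Without any one of TAC+JP2NT replicates 1 to 3 the count called was 13 to 15, and Mki67, Kif11, Rrm2, Tyms and E2f1 were among the calls lost each time. The members were chosen with such results known, so these counts describe them. The 2 sets of members that rose held 19 in common, 82.6% of those under GFP and 95% of those under JP2NT. The difference had the same sign under both vectors in 34 of 37 members and in 81.0% of all genes tested. Ccnb2, Plk1, Prc1 and Tpx2 were called under GFP alone and E2f1 under JP2NT alone, but no member was called in the interaction of surgery and vector, in which 0.0755% of all genes were called.

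**Figure D2:**
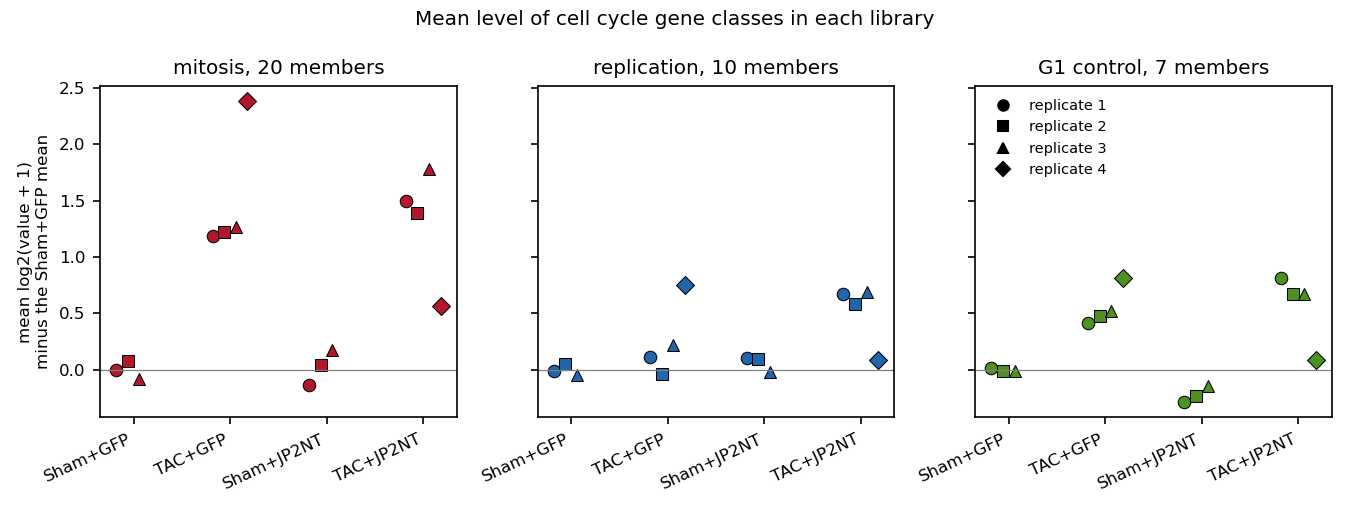
Mean log2(value + 1) of the mitosis, replication and G1 control members in each of the 14 libraries, minus the mean of the 3 Sham+GFP libraries, by group on the x axis and with a marker for each replicate number. For the mitosis members TAC+GFP replicates 1 to 3 lie between 1.19 and 1.26 with replicate 4 at 2.38, and TAC+JP2NT replicates 1 to 3 lie between 1.39 and 1.78 with replicate 4 at 0.56.

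Mki67, the proliferation marker Ki-67 that coats mitotic chromosomes (chr7:135689784-135716361, minus strand), had values of 43.4, 35.1 and 40.0 in Sham+GFP and 133, 147, 175 and 342 in TAC+GFP. In Sham+JP2NT it had 50.4, 58.8 and 65.1, and in TAC+JP2NT 198, 169, 232 and 64.9. All TAC+GFP libraries lay above all Sham+GFP libraries, whereas TAC+JP2NT replicate 4 lay within the Sham+JP2NT range. The log2 difference was 2.20 under GFP (SE 0.37, limma adjusted p = 0.000217) and 1.32 under JP2NT (SE 0.42, limma adjusted p = 0.0267).

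Top2a, the topoisomerase that untangles sister chromatids, had 22.6, 30.0 and 27.3 in Sham+GFP and 87.4, 77.2, 71.2 and 137 in TAC+GFP. It had 38.2, 44.8 and 23.9 in Sham+JP2NT and 98.7, 93.3, 94.2 and 44.1 in TAC+JP2NT. The groups did not overlap under GFP, and under JP2NT replicate 4 of TAC was just below the highest sham library. Its log2 differences were 1.73 (SE 0.29) and 1.29 (SE 0.33), both called.

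The kinase and cyclins that start mitosis moved together under GFP. Cdk1, the mitotic kinase, had 15.9, 14.4 and 12.5 in Sham+GFP and 46.2, 47.5, 49.0 and 115 in TAC+GFP, a log2 difference of 1.99 (SE 0.34). Its partners Ccnb1, Ccnb2 and Ccna2 differed by 2.44, 2.02 and 1.81 under GFP, all called. Under JP2NT Cdk1 differed by 1.31, Ccnb1 by 2.10 and Ccna2 by 1.78, all called, while Ccnb2 differed by 1.04 and was not called (limma adjusted p = 0.182). Cdk1 overlapped between the JP2NT groups, since its TAC replicate 4, at 23.6, lay under Sham+JP2NT replicate 1, at 27.0. Named pseudogenes exist for Ccnb1 and Ccnb2, and how reads were shared with them is not given in the sources used here. Foxm1, the transcription factor of the mitotic genes, differed by 1.63 under GFP (SE 0.25) and 1.36 under JP2NT (SE 0.29), both called. Its values were 13.01 to 20.3 in Sham+GFP, 42.1 to 73.0 in TAC+GFP, 10.9 to 22.9 in Sham+JP2NT and 30.7 to 54.6 in TAC+JP2NT, with no overlap between sham and TAC under either vector.

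Genes of the spindle and its checkpoint followed. Birc5, or survivin, a subunit of the chromosomal passenger complex, showed the highest difference of the 37 members, at 3.14 under GFP (SE 0.54) and 2.26 under JP2NT (SE 0.61). It had 8.54, 1.73 and 2.39 in Sham+GFP and 26.8, 27.5, 33.5 and 86.7 in TAC+GFP, so that its sham levels rest on few reads. Its partner kinase Aurkb differed by 0.97 and 1.15, and the checkpoint genes Bub1 by 1.98 and 2.09 and Bub1b by 1.03 and 1.14 under GFP and JP2NT, all called. The kinetochore motor Cenpe (1.28 and 1.64), the spindle motor Kif11 (1.81 and 1.35) and the spindle protein Nusap1 (1.31 and 1.34) were also called under both vectors. The mitotic kinase Plk1 (1.38), the midzone protein Prc1 (1.90) and the spindle assembly factor Tpx2 (1.25) were called under GFP. Under JP2NT they differed by 0.57, 1.19 and 0.89, with limma adjusted p of 0.466, 0.0560 and 0.146. Aurka, the centrosomal kinase, and Kif20a, a motor of cytokinesis, were called under neither vector. Aurka differed by 0.90 and 1.09 and Kif20a by 0.73 and 0.94, with limma adjusted p of 0.111 to 0.128. Kif20a had 37.3, 42.0 and 38.0 in TAC+GFP replicates 1 to 3 and 125 in replicate 4, against 27.7 to 33.1 in Sham+GFP. In Prc1, Nusap1, Kif20a and Ccna2 a gene on the other strand overlaps (Rccd1, Oip5, Cdc23 and Exosc9), and whether reads were counted by strand is not given in the sources used here.

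Cenpf, a large kinetochore protein whose mouse form was described in heart muscle as LEK1, went the other way (chr1:189640606-189688086, minus strand). It had 158, 251 and 297 in Sham+GFP and 71.0, 57.7, 155 and 140 in TAC+GFP. It had 393, 420 and 306 in Sham+JP2NT and 212, 125, 72.7 and 179 in TAC+JP2NT. All TAC libraries lay below all sham libraries of their vector. The log2 difference was -1.22 under GFP (SE 0.37, limma adjusted p = 0.0144) and -1.36 under JP2NT (SE 0.42, limma adjusted p = 0.0242). Of the 20 mitosis members it alone was not highest in TAC+GFP replicate 4.

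**Figure D3:**
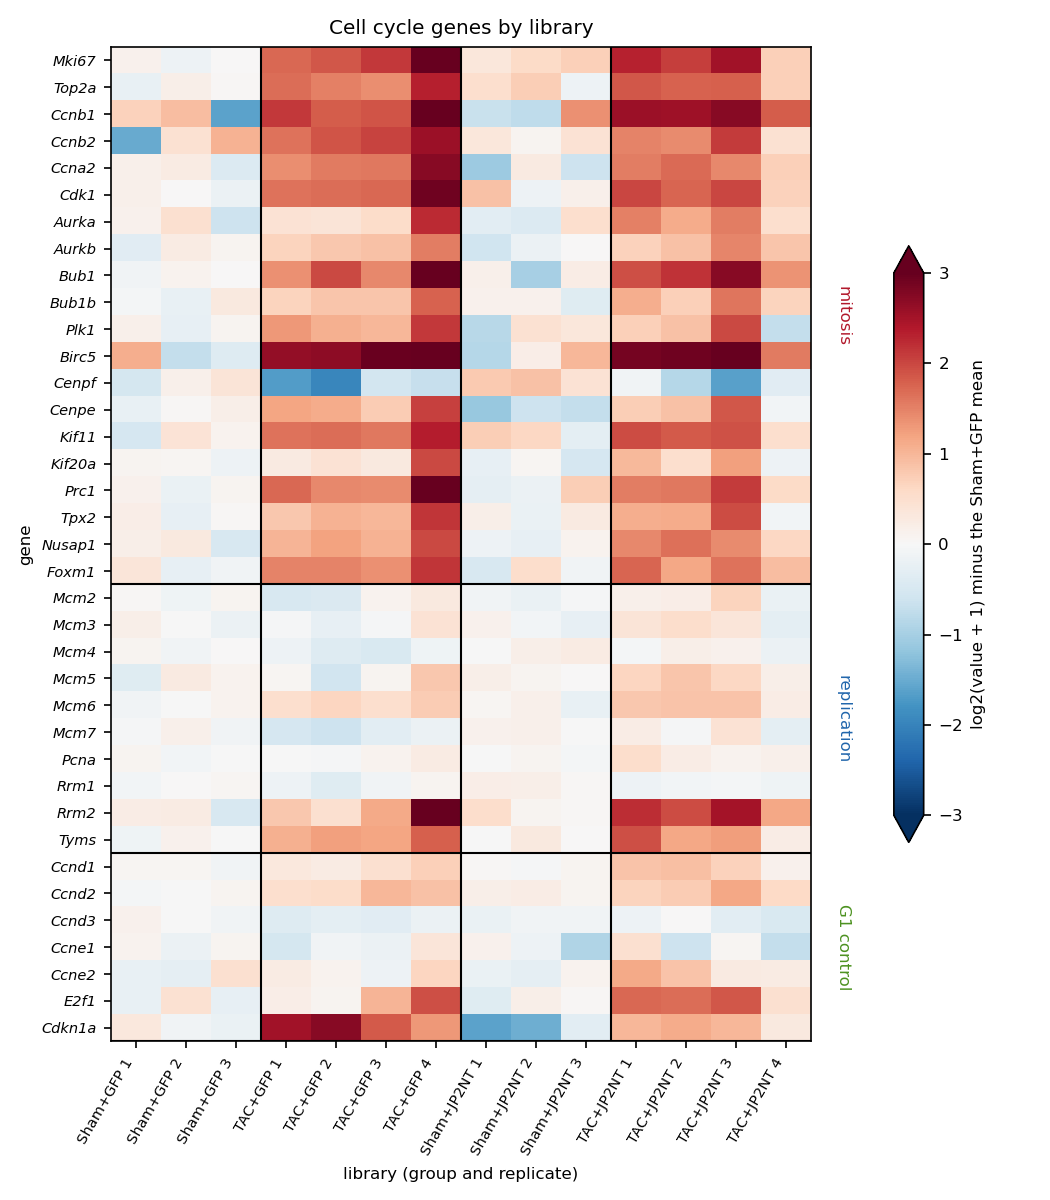
Log2(value + 1) of each of the 37 genes (rows, by class) in each of the 14 libraries (columns, by group and replicate), minus the mean of the 3 Sham+GFP libraries; red is higher and blue lower, and the colour scale ends at 3 in either direction. The mitosis block is mostly red in the TAC libraries except for Cenpf, with TAC+GFP 4 darkest and TAC+JP2NT 4 palest. In TAC+JP2NT 4, Plk1, Kif20a, Tpx2 and Cenpe also lie below the Sham+GFP mean. In the replication block Rrm2, Tyms and Mcm6 alone rose under both vectors.

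In the replication class 3 members rose under both vectors, Rrm2 and Tyms, which act in nucleotide supply, and Mcm6, a subunit of the MCM helicase. Rrm2, the S-phase subunit of ribonucleotide reductase (chr12:24708241-24714146, plus strand), had 30.8, 31.1 and 18.3 in Sham+GFP and 46.4, 36.7, 58.6 and 281 in TAC+GFP. It had 38.1, 27.6 and 26.6 in Sham+JP2NT and 125, 103, 152 and 59.9 in TAC+JP2NT. TAC+GFP replicate 4 held 5.95 times the mean of the other 3 libraries of its group, the highest ratio among the members. The log2 difference was 1.45 under GFP (SE 0.52, limma adjusted p = 0.0324) and 1.79 under JP2NT (SE 0.59, limma adjusted p = 0.0329). Without TAC+GFP replicate 4 it was 0.81 under GFP (limma adjusted p = 0.0448). The GFP call was made in 21 of 27 settings and lost without any one of the 3 Sham+GFP libraries, with limma adjusted p up to 0.123 over the settings. The JP2NT call was also made in 21 of 27 settings, and was lost without Sham+JP2NT replicate 3 or without any one of TAC replicates 1 to 3 (limma adjusted p up to 0.18). Its partner subunit Rrm1, present through the cycle, had 193 to 285 in all 14 libraries and differed by -0.14 and -0.21, neither called.

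Tyms, the thymidylate synthase, had 16.9, 20.4 and 18.4 in Sham+GFP and 40.1, 44.6, 43.1 and 67.0 in TAC+GFP, a log2 difference of 1.32 (SE 0.31). Under JP2NT it differed by 1.06 (SE 0.35) and TAC replicate 4, at 21.7, lay inside the sham range of 18.4 to 23.0. Mcm6 had 107, 114 and 125 in Sham+GFP and 165, 179, 163 and 196 in TAC+GFP. It had 120, 129 and 98.2 in Sham+JP2NT and 202, 209, 210 and 134 in TAC+JP2NT. Sham and TAC did not overlap under either vector, and the log2 differences were 0.60 (SE 0.15) and 0.74 (SE 0.17), both called.

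The other MCM subunits did not move with Mcm6. Under GFP, Mcm2, Mcm3, Mcm4 and Mcm5 differed by -0.13, 0.03, -0.29 and 0.09, and under JP2NT by 0.29, 0.35, -0.15 and 0.49, none called. Mcm7 (chr5:138164583-138172422, minus strand) had 146, 167 and 140 in Sham+GFP and 105, 97.6, 122 and 134 in TAC+GFP, with no overlap. It fell by 0.40 on the log2 scale under GFP (SE 0.16, limma adjusted p = 0.0489), a call made in 13 of 27 settings of the analysis. Under JP2NT it had 163, 168 and 150 in sham and 176, 147, 204 and 123 in TAC, a difference of 0.01. Mcm7 shares its position with Cops6 and Ap4m1 on the other strand and hosts Mir25, Mir93 and Mir106b. Pcna, the sliding clamp of DNA polymerase, differed by 0.07 under GFP and 0.27 under JP2NT, neither called, although all TAC+JP2NT libraries (473 to 631) lay above all Sham+JP2NT libraries (419.5 to 461). A named pseudogene exists for Pcna and for Tyms.

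**Figure D4:**
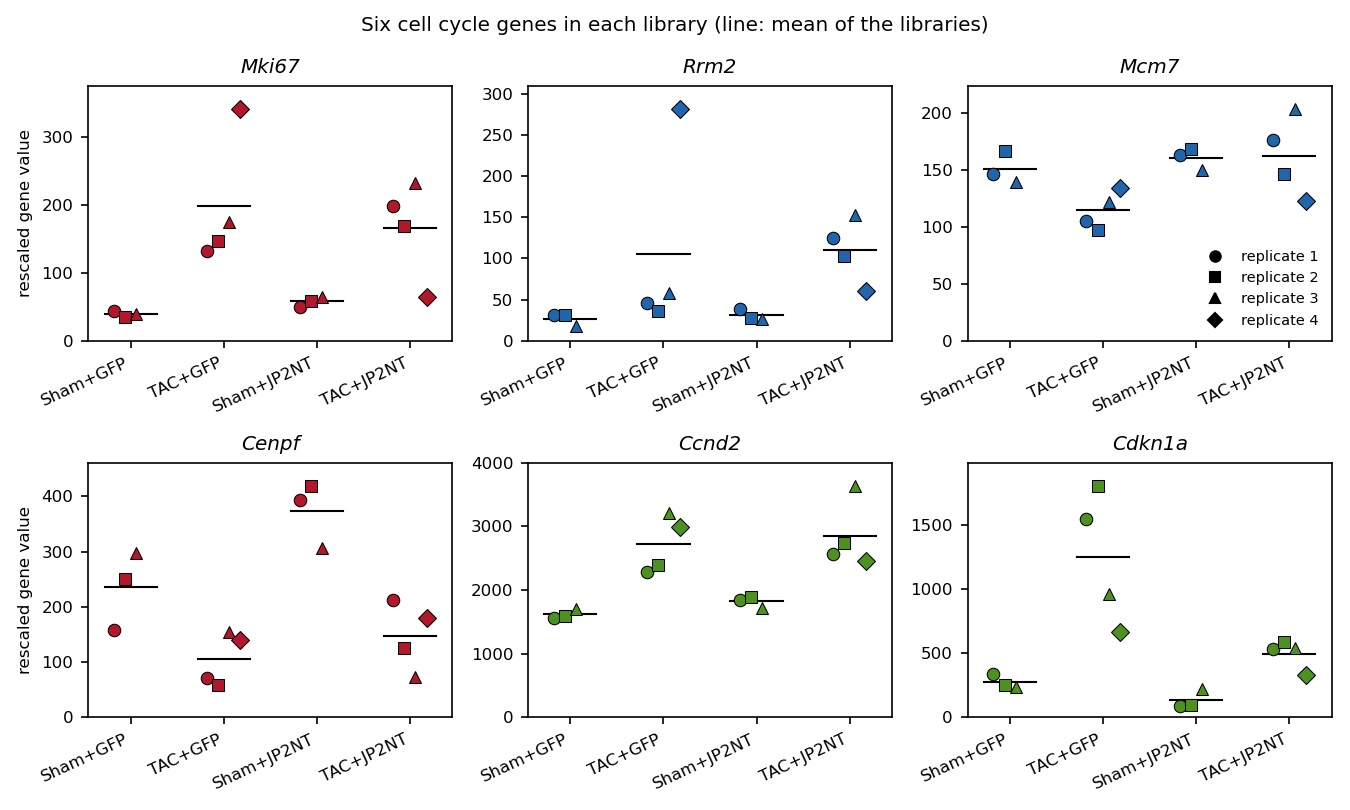
Rescaled gene values (linear y axis from 0) of Mki67, Rrm2, Mcm7, Cenpf, Ccnd2 and Cdkn1a in each of the 14 libraries, by group, with a marker for each replicate number and a line at the mean of the libraries of a group. Mki67 and Rrm2 reach 342 and 281 in TAC+GFP replicate 4, Cenpf is lower in TAC, and Cdkn1a is highest in TAC+GFP replicates 1 and 2.

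Among the G1 genes, 2 of the 3 cyclins D rose. Ccnd2 had 1562, 1594 and 1701 in Sham+GFP and 2285, 2388, 3207 and 2993 in TAC+GFP. It had 1842, 1894 and 1723 in Sham+JP2NT and 2569, 2734, 3638 and 2460 in TAC+JP2NT. Sham and TAC did not overlap, and the log2 differences were 0.73 (SE 0.13) under GFP and 0.65 (SE 0.15) under JP2NT. Ccnd1 differed by 0.44 (SE 0.16) and 0.61 (SE 0.18), both called, in 21 and 25 of 27 settings. The GFP call was lost without any one of the 3 Sham+GFP libraries, without TAC+GFP replicate 3 and with no trend. It was also lost without TAC+GFP replicate 4, where the difference was 0.34 (limma adjusted p = 0.0849). Ccnd3 fell by 0.29 under GFP (SE 0.10, limma adjusted p = 0.0224), from 845 to 984 in Sham+GFP to 695 to 805 in TAC+GFP, and differed by -0.09 under JP2NT. Ccnd3 overlaps Bysl on the other strand, Ccnd2 overlaps 9330179D12Rik, and a pseudogene is named for Ccnd3. The cyclins E, Ccne1 and Ccne2, were called in no comparison. E2f1, the factor that drives replication genes, had 12.6, 20.7 and 12.4 in Sham+GFP and 17.3, 15.7, 31.3 and 59.0 in TAC+GFP, and was not called (0.81, limma adjusted p = 0.124). It had 11.4, 17.0 and 15.3 in Sham+JP2NT and 50.8, 49.8, 56.2 and 21.2 in TAC+JP2NT, a rise of 1.44 (SE 0.48, limma adjusted p = 0.0318).

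Cdkn1a, the inhibitor p21 (chr17:29090976-29100727, plus strand), rose after TAC under both vectors. It had 334, 250 and 234 in Sham+GFP and 1548, 1805, 965 and 665 in TAC+GFP, a log2 difference of 2.10 (SE 0.33, limma adjusted p = 0.000124). It had 88.2, 97.2 and 218 in Sham+JP2NT and 534, 588, 539 and 328 in TAC+JP2NT, a log2 difference of 1.76 (SE 0.37, limma adjusted p = 0.00295). Cdkn1a was lowest of its group in both TAC libraries numbered 4, although most mitosis members were highest of their group in the GFP one and lowest of theirs in the JP2NT one.

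**Figure D5:**
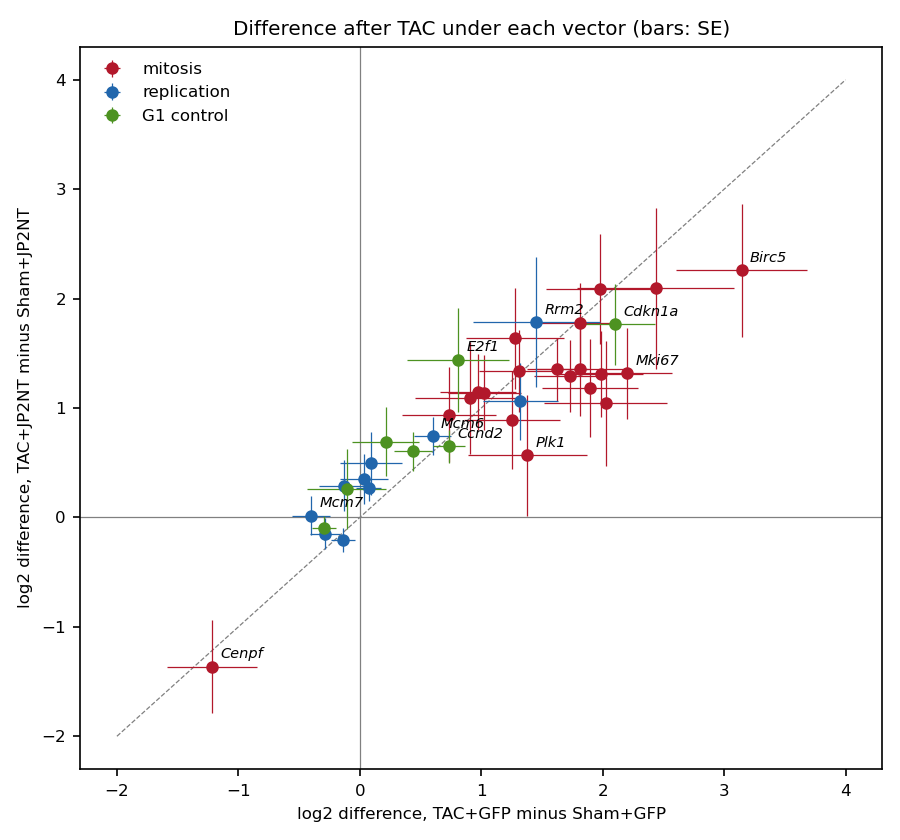
Log2 difference between TAC and sham for each of the 37 genes under GFP (x axis) and under JP2NT (y axis), with SE bars, coloured by class; the dashed line marks equal differences. All 20 mitosis genes have the same sign under both vectors, as do 81.0% of all genes tested. Of the mitosis genes Cenpf alone is below 0, and most replication genes lie near 0 on the x axis.

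The 2 vectors were compared directly in TAC hearts, where 5.99% of all genes were called, 2.74% higher in TAC+JP2NT and 3.25% lower. Of the 37 members only Cdkn1a was called, and it was lower in TAC+JP2NT by 1.25 on the log2 scale (SE 0.30, 95% interval -1.90 to -0.60, limma adjusted p = 0.0273). No mitosis or replication member was called, and their medians were -0.25 and 0.26. The 95% interval of the difference was -1.03 to 0.43 for Mki67, -0.77 to 0.39 for Top2a, -0.53 to 1.54 for Rrm2 and 0.17 to 0.80 for Mcm7 (0.48, limma adjusted p = 0.0646). Cdkn1a was the sole member whose TAC groups did not overlap, with all TAC+JP2NT libraries below all TAC+GFP libraries, as in 5.29% of all genes. In sham hearts it also stood lower with JP2NT in every library (log2 difference -0.92, SE 0.39), an order seen in 12.4% of all genes. It was not called there, and neither was any other member or any gene tested (0.0%). The interaction for Cdkn1a was -0.33 (95% interval -1.39 to 0.72). The call of Cdkn1a between TAC groups held in 20 of 27 settings and was lost, among others, without TAC+GFP replicate 1, without TAC+GFP replicate 2 and without TAC+JP2NT replicate 4.

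The TAC libraries numbered 4 lay at opposite ends of the range. TAC+GFP replicate 4 was the highest of all 14 libraries for 19 of 20 mitosis members, 1 of 10 replication members (Rrm2) and 1 of 7 G1 control members (E2f1), as it was for 6.41% of all genes tested. Its values stood at a median of 2.17 times the mean of TAC+GFP replicates 1 to 3 for mitosis members, from 1.48 (Cenpf) to 4.03 (Ccnb1), and at 1.35 times for replication members. Within its group it was highest for 34 of 37 members, against 27.2% of all genes. TAC+JP2NT replicate 4 was lowest of its group for 33 of 37 members, against 32.2% of all genes, at a median of 0.465 times the mean of replicates 1 to 3 for mitosis members and 0.688 times for replication members. The mean over mitosis members was 1.19 to 1.26 in TAC+GFP replicates 1 to 3 and 1.39 to 1.78 in TAC+JP2NT replicates 1 to 3, relative to Sham+GFP. The mean over replication members was -0.03 to 0.22 and 0.58 to 0.69 in these libraries. In 19 members, replicates 1 to 3 of TAC+JP2NT all lay above replicates 1 to 3 of TAC+GFP, as in 13.1% of all genes. They were 8 of 20 mitosis members, 8 of 10 replication members and 3 of 7 G1 control members. Replicate 4 was set aside here after its values were seen, so these counts are a description.

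Leaving out both libraries, an alternative chosen after these values were seen, takes away the highest TAC+GFP library and the lowest TAC+JP2NT library for most members. That alone moves their differences towards higher values with JP2NT and narrows the spread, so the differences between the TAC groups are given as a description with no test. They were 0.59 for Mcm2, 0.52 for Mcm3, 0.83 for Mcm5 and 0.67 for Mcm7. Rrm2 stood at 1.40, E2f1 at 1.30, Ccnd1 at 0.46 and Cdkn1a at -1.34. These members were picked because the fit without both libraries called them, so they stand for no group of genes. Over all settings the difference reached at most 0.92 for Aurka, 0.68 for Bub1 and 0.67 for Ccne2, none called in any setting. For the helicase subunits Mcm4 and Mcm6 it reached at most 0.41 and 0.28, also never called. The median of the mitosis members was 0.27. Against sham, without both libraries, 16 mitosis members and 3 replication members rose under GFP, where 24.5% of all genes were called higher. Under JP2NT 17 mitosis members and 5 replication members rose, against 18.8% of all genes. Without TAC+GFP replicate 4 alone, 14 mitosis members rose under GFP, against 22.9% of all genes, and Aurkb, Cenpe and Plk1 lost their calls, with differences of 0.78, 1.02 and 1.13.

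Markers of other cells also differed between groups and libraries. From Sham+GFP to TAC+GFP the range of the summed value of 15 macrophage markers moved from 5315-5602 to 5907-7167. Of these 15, Cd14, Ccr2 and Lgals3 rose, while the receptor genes Csf1r (625 to 672 in Sham+GFP, 435 to 533 in TAC+GFP) and Cd163 (209 to 222 and 106 to 153) fell. The range for 12 fibroblast markers moved from 29263-32526 to 34070.1-44999. Of these 12, 7 lay higher in all TAC+GFP than in all Sham+GFP libraries. Gsn (13861 to 17090 in Sham+GFP, 9955 to 12451 in TAC+GFP) and Ddr2 (341 to 378 and 276 to 324) lay lower. The range for 11 T cell markers moved from 29.2-49.5 to 133-167, with most of the difference in Cxcr6 (0.83 to 3.95 and 77.1 to 117). Without Cxcr6 the T cell ranges overlapped, at 25.2-48.6 and 40.8-66.7. The range for 8 erythroid markers moved from 6880.2-8475 to 15969.7-22162. Between the JP2NT groups the sums of all 4 lists overlapped except that of the T cell markers (41.1 to 46.4 in sham and 48.2 to 80.6 in TAC), which without Cxcr6 overlapped too (37.1 to 42.5 and 30.6 to 47.9). Within TAC+GFP, replicate 4 stood out by B cell markers. Its summed value over 7 B cell markers was 136, the highest of its group, whose lowest was 47.2, against 31.9 to 48.7 in Sham+GFP, 52.9 to 65.2 in Sham+JP2NT and 30.6 to 63.9 in TAC+JP2NT. The B cell genes Cd79a (28.8), Cd79b (35.8) and Ms4a1 (22.6) were highest there of the 14 libraries, at low values. Its sum over 15 macrophage markers, 5907, was the lowest of TAC+GFP, where the sums reached 7167, as were those over 12 fibroblast markers (34070.1) and 12 endothelial markers (20373). The T cell sum over 11 markers, 133, was the lowest of its group too, as was the sum over 8 neutrophil markers (45.0, where the sums reached 175). The neutrophil marker Ly6g was at 0 in all libraries, but other neutrophil markers were detected, such as S100a9 at 6.06 to 77.3. In TAC+JP2NT replicate 4 the macrophage sum of 4167 was the lowest and the sum over 12 cardiomyocyte markers, 1186970, the highest of the TAC libraries. The part of these cells in the levels of the cell cycle genes was not tested.

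Other genes of the cycle were counted from lists that hold no member. Of all genes tested, 23.3% were called higher and 24.7% lower under GFP, and 16.0% and 15.8% under JP2NT. Between the TAC groups 5.99% were called. No gene of these lists, or of the lists in the next paragraph, was called in the interaction of surgery and vector (0.0755% of all genes). Of 50 other mitosis genes tested, 31 rose and 2 fell under GFP (median 1.31), and 19 rose and 1 fell under JP2NT (median 0.97). Among them were Hmmr, a spindle protein (2.89 and 2.42), the mitotic kinase Pbk (2.52 and 2.08) and the kinetochore gene Spc25 (2.33 and 2.21). The condensin subunit Ncapg differed by 1.64 and 3.01. Mybl2, which encodes B-MYB, rose by 2.35 under JP2NT and differed by 0.39 under GFP, not called. Both rest on very low values in Sham+JP2NT, at 1.25, 1.13 and 0 for Ncapg and 2.41, 4.57 and 0 for Mybl2. In TAC+JP2NT they had 8.77 to 16.1 and 5.37 to 13.4. Nuf2 of the kinetochore rose by 2.32 under GFP and differed by 0.66 under JP2NT, not called. Of 33 other replication genes tested, 6 rose and 6 fell under GFP (median 0.11), and 1 rose and 4 fell under JP2NT (median 0.13). The thymidine kinase gene Tk1 rose by 0.73 under GFP and differed by 0.72 under JP2NT, not called. Uhrf1, which maintains DNA methylation, rose by 1.54 under JP2NT and differed by 0.14 under GFP, not called. The uracil glycosylase Ung fell by 1.00 and 0.61, and the polymerase subunit gene Pole fell by 0.55 and 0.69. Ung was the sole gene of both lists called between the TAC groups, 0.34 higher in TAC+JP2NT.

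Of 8 other CDK inhibitors and pocket proteins tested, none rose, where 23.3% of all genes rose under GFP and 16.0% under JP2NT. Cdkn1c, or p57, fell by 1.08 under GFP and 0.86 under JP2NT, and the pocket protein gene Rbl2 fell by 0.38 and 0.35. Cdkn1b, or p27, fell by 0.50 under JP2NT and differed by -0.21 under GFP, not called. Cdkn2d was 0.33 lower with JP2NT between the TAC groups. Of 15 G1 kinases and E2F factors, Myc rose by 1.31 and Cdc25a, Cdk2 and E2f6 fell by 0.70, 0.40 and 0.19 under GFP. Under JP2NT these genes differed by 0.15, -0.30, -0.42 and 0.08, none called. E2f2 rose by 2.53 and E2f3 by 0.44 under JP2NT, and under GFP they differed by 1.12 and 0.27, not called. E2f2 had low Sham+JP2NT values of 3.42, 6.48 and 0, and its sham and TAC libraries overlapped under neither vector. Of 13 genes listed as p53 targets, as Cdkn1a is, 6 rose and 1 fell under GFP and 7 rose and 1 fell under JP2NT. The stress cytokine gene Gdf15 led them at 4.24 and 2.77, followed by Btg2 (1.23 and 0.96), Eda2r (1.12 and 1.74) and Phlda3 (0.86 and 1.05) under both vectors. Trp53inp1 rose by 1.25 under GFP and differed by 0.61 under JP2NT, not called. None of these 13 was called between the TAC groups, where 5.99% of all genes were called.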

How the data were processed

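Polyadenylated ventricular RNA was sequenced as stranded paired-end libraries. The submitters' processing notes name FastQC 1.0.0, STAR 2.6.1a, Salmon and the build mm10; no source used here names the annotation or what scaled the counts. The deposited table holds a signal, read here from its values as gene counts divided by scale factors; that these were set separately for the 7 GFP and the 7 JP2NT libraries is inferred from the values. Library depths were estimated from its smallest steps.

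Here the 14 libraries were rescaled together by unweighted TMM (the outer 30% of ratios and 5% of levels cut), 1 was added and log2 taken. Genes with 10 or more in 3 or more libraries (13246) entered limma 3.58.1 in R 4.3.3, with a trend and all 4 groups (9 residual degrees of freedom, 5.74 prior). The method was tested on simulated data. Sham+JP2NT replicates 1 and 2 had a ratio of observed variance to sampling variance of 1.33, against 2.36 to 26.7 in the 17 other pairs, and were averaged. Replicate numbers were not used as pairs in the main fit. Libraries of different groups with the same number had r of deviations of -0.169 to 0.0737 over 19 pairs, which cannot exclude a weak shared effect.

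All members were named. From the pathway lists, up to 4 called genes with the largest differences per comparison were named, and any CDK inhibitor called; some genes this rule names are not reported here. Members and lists were chosen with earlier results of these data known. Correlations over samples are not given, since the samples fall into sham and TAC clusters. Positions are from GENCODE on GRCm38, the assembly of mm10. Alternatives covered scaling, pseudocount, filter, spread, trend and each library left out.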

Additional observations from a re-analysis of the deposited data

Results flagged for a closer look

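In groups of 4 libraries, a value was marked when the gap from the highest or lowest library to the next was too large a part of the group's range (Dixon's test at 95%). Of 80 groups tested, 18 were marked. Chance alone marks about 1 in 20 such groups, but the members share libraries, so the marks are not independent. TAC+GFP replicate 4 was marked 15 times, always as the highest. That this library is highest in these genes was known when the members were chosen, so its marks describe the library and add no evidence. Among the cyclins and kinases its values were 82.6 for Ccnb1, 118 for Ccna2, 115 for Cdk1 and 55.7 for Aurka. Among genes of the checkpoint and spindle it stood at 55.5 for Bub1b, 86.7 for Birc5, 63.5 for Kif11, 125 for Kif20a, 154 for Prc1, 81.4 for Tpx2 and 36.5 for Nusap1. Foxm1 reached 73.0 there, and the nucleotide enzymes Rrm2 and Tyms reached 281 and 67.0. The mean over the mitosis members was marked as well, at 2.38 on the log2 scale relative to Sham+GFP. TAC+JP2NT replicate 4 was marked 3 times, always as the lowest, at 44.1 for Top2a, 16.6 for Kif11 and 134 for Mcm6.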

How the results depend on the processing

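For TAC against sham, 26 members were called under GFP and 21 under JP2NT, beside 48.0% and 31.8% of all genes. With a filter of 50, which tests 22 members, 14 and 12 were called, beside 52.8% and 37.2% of all genes then tested. Leaving out 1 library in turn gave 18 to 26 under GFP and 6 to 25 under JP2NT, lowest without Sham+JP2NT replicate 3 (6), which leaves 1 sample in that group with its spread taken from the others, and without TAC+JP2NT replicate 3 (13). Between TAC groups 1 member was called, beside 5.99% of all genes. The count of members was 2 with 14 separate libraries (7.36% of all genes). It was 0 with a spread per group (3.07%), with only the compared groups (1.25%), with no trend (3.49%) or with the closest TAC libraries averaged (1.19%). With 1 library left out it was 0 to 3 (0 without TAC+GFP replicate 1 or 2, 3 without TAC+GFP replicate 4, 2 without TAC+JP2NT replicate 4). With both TAC libraries numbered 4 left out it was 8 (8.68%), and the median of the mitosis members was 0.27. That count and median follow from dropping the highest library of one group and the lowest of the other for most members. In the other cases the cause was not tested. With 14 separate libraries 26, 25 and 2 members were called, and with the replicate block added to these 14 libraries 24, 23 and 1. The sham comparison and the interaction gave 0 in each setting. The 48 called member results gave 1275 results under the alternatives, of which 1171 kept the call and 104 lost it. The 63 results not called gave 1677, of which 36 gained a call. None reversed a called direction, while 65 changed sign with neither value called. On the values as deposited, 225 genes were higher and 1190 lower between the TAC groups, against 363 and 430 here. Low read counts of the mitosis members in sham limit their fold changes.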
